A study of Mus musculus with 6 samples.

Results

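Antigen processing and presentation was followed at 10 genes, H2-D1, H2-K1, B2m, Tap1, Tap2, Tapbp, Psmb8, Psmb9, H2-DMa and Cd74, in chromatin accessibility profiles of NIH/3T3 cells, a line of mouse embryonic fibroblasts. A region belonged to the set if the deposited table assigned it to 1 of these genes, at any distance from the transcription start site. This gave 11 of 63430 regions, which belonged to 7 of the 10 genes; no region carried the name of Tapbp, Psmb8 or Psmb9. The genes were picked with the contrast between the guides already known, so every value of these 11 regions is given as a description. Where the fit over all regions called one of them, the call is stated without a p-value and supports nothing by itself.

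In all cells the gene of Cas13d, an RNA-cutting nuclease of the CRISPR family, had been knocked in, and all were transfected with a guide RNA. One group received a guide against the mRNA of Actg1, which encodes cytoplasmic gamma-actin, and the control group a guide against GFP, with 3 ATAC-seq libraries in each. The stated aim was to find out how decay of an mRNA bears on transcriptional adaptation, a response in which related genes become more active. ATAC-seq reads open DNA and does not measure mRNA, so neither the loss of the Actg1 transcript nor the expression of any gene below was measured here. Each library came from 25000 cells. The labels speak of biological replicates and do not say whether the cultures were separate, so p-values measure only the spread between these samples, which may be technical. They also do not say whether the Cas13d line is a single clone, nor how long after transfection the cells were taken.

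Class I molecules show peptides from inside the cell to cytotoxic T cells. They consist of a heavy chain, such as those of H2-K1 and H2-D1, and the small subunit beta-2-microglobulin from B2m. The proteasome, with the interferon-inducible subunits Psmb8 and Psmb9, cuts proteins into peptides, the Tap1-Tap2 transporter carries these into the endoplasmic reticulum, and tapasin, from Tapbp, helps load them. Class II molecules show peptides from endosomes to helper T cells: Cd74, the invariant chain, guards their groove, and H2-DM, with the alpha chain from H2-DMa, helps exchange its remains for peptide. Fibroblasts express class I at a low level that interferons raise, while class II belongs mainly to professional antigen-presenting cells. In the mouse most of these genes lie in the major histocompatibility complex of chromosome 17; B2m and Cd74 lie on other chromosomes.

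The sequences below are shown because the class I promoters carry a shared regulatory module and lie inside regions measured here. They were taken from RefSeq, build GRCm38.p6, end at the base before a RefSeq start site and run 5′ to 3′ on the gene's strand. In H2-K1, H2-D1 and B2m the capitals mark, in order, a match to the NF-kB site of enhancer A (GGGATTCCC, not found in B2m), a match to the interferon response element type (GAANNGAAA or GAAANNGAA, either strand), and the letters TGACG and ATTGG, which have the form of the X2 and Y boxes. For the NF-kB site only these exact letters were searched, so a variant form of it, in B2m or elsewhere, would stand unmarked. In Tap1 they mark CCAAT and the GC box, which reads CCGCCC on this strand. The stretches lie at chr17:34000348-34000467 (minus strand), chr17:35262914-35263093 (plus), chr2:122147538-122147686 (plus) and chr17:34187324-34187555 (plus).
H2-K1: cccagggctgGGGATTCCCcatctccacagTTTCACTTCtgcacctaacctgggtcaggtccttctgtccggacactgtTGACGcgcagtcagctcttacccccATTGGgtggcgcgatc
H2-D1: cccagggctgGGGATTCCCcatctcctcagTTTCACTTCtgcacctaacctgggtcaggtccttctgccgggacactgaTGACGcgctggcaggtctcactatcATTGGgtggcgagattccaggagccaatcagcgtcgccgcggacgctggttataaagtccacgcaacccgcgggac
B2m: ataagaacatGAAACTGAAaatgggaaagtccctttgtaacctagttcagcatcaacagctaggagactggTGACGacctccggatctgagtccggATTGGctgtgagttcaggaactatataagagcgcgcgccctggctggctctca
Tap1: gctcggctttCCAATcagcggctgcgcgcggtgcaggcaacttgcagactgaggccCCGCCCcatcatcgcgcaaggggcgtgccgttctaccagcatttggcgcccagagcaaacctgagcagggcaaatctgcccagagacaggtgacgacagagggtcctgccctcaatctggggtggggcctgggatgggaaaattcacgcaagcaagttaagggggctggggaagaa

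Each motif was searched on both strands in the 250 bases before the start, for members and for all 32851 windows of the RefSeq table. Windows of 8 of the 10 genes were matched; Tap2 and Cd74 were not. The NF-kB site began at −170 in H2-D1 and at −110 in H2-K1 and occurred in 0.301% of all windows. The interferon response type matched in H2-D1 at −150, in H2-K1 at −90 and in B2m at −139, against 12.5% of windows. TGACG followed by ATTGG after 10 to 30 bases was present in the same 3 genes, each time with 20 bases between, and in 0.642% of windows. All 3 features together occurred in 4 windows, which belong to H2-K1, H2-D1 and H2-Q7. The motifs CCAAT (33.8% of windows), GC box GGGCGG (32.7%) and TGACG alone (17.8%) were common everywhere, and ATTGG is CCAAT read on the other strand, so those matches overlap. The interferon-gamma activated type TTCNNNGAA matched in Psmb8 among the members, and in 7.02% of windows. A match is a run of letters, not a bound site.

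The upstream windows of H2-D1 and H2-K1 were 87.4% identical over their aligned bases, with a longest shared run of 47 bases. H2-K1 and H2-Q7 were 88.2% identical, with a longest shared run of 24 bases. Read length and the handling of reads that map to several places were not given in the sources used here, so the class I promoter values are uncertain where reads could be split between such copies.

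In the values that follow, signal is the read count per region after the authors' normalization between libraries, in whole numbers. A fold is the Actg1 mean over the GFP mean, the latter with GFP guide replicates 1 and 2 averaged first because they differed by less than sampling noise. A log2 fold change is on the log2(signal + 1) scale, with the standard error (SE) of the limma fit over all regions, for 2 GFP and 3 Actg1 samples. A region was called when limma's Benjamini-Hochberg adjusted p was under 0.05. Of the 61327 regions tested, 41.3% were called, 20.6% higher and 20.7% lower with the Actg1 guide. All 11 member regions passed the filter on low signal; 7 of them were called higher and 0 lower by limma, also at an unadjusted p under 0.05, and 4 were not called. In the same 7 regions every Actg1 library lay above every GFP library, which held for 25.2% of all regions. As this contrast chose the genes, nothing is read from that count.

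**Figure D1:**
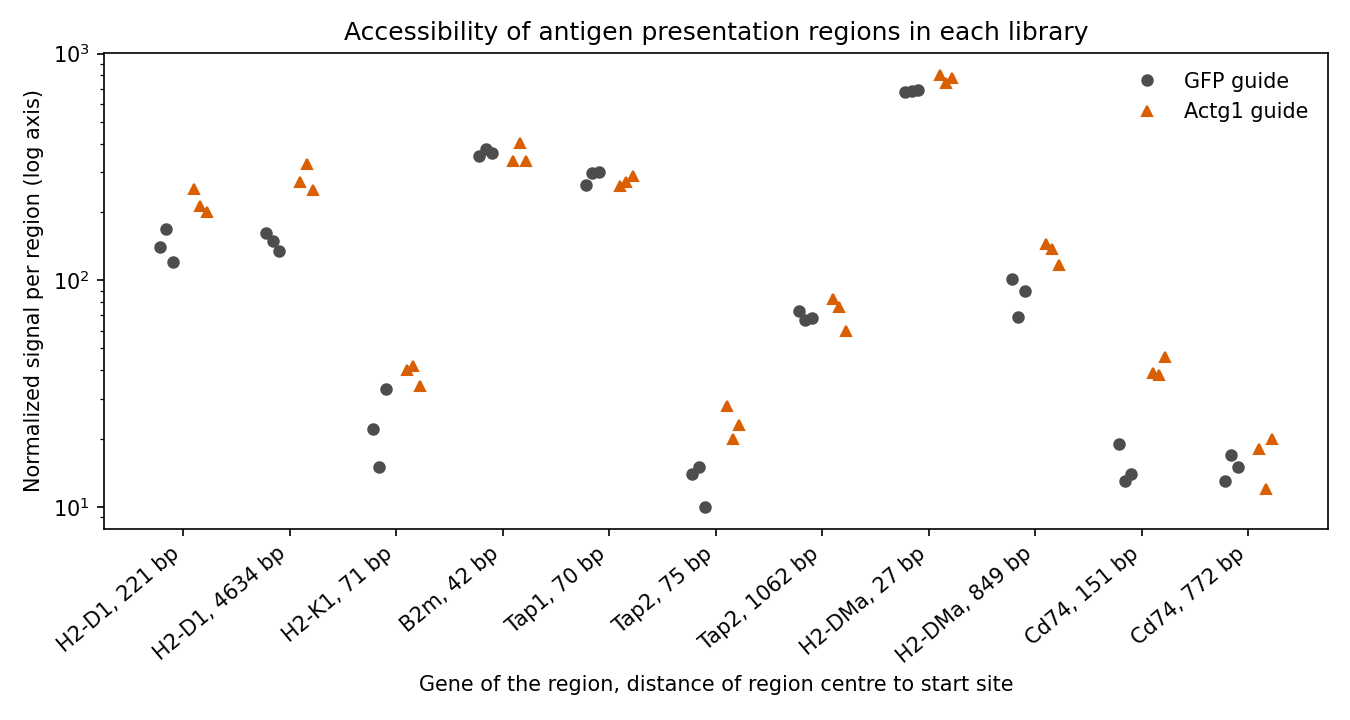
Normalized signal per region (y, log axis) at the 11 antigen presentation regions (x, gene and distance of the region centre to the start site), 1 point per library, circles for the GFP guide and triangles for the Actg1 guide. In 7 regions all 3 triangles lie above all 3 circles, and in the other 4, of B2m, Tap1, Tap2 at 1062 bp and Cd74 at 772 bp, they overlap.

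Both class I heavy chain genes had more signal with the Actg1 guide, whereas at the gene of their light chain the groups overlapped. In such bulk libraries, more cells with an open site and a more open site per cell cannot be told apart. At the H2-D1 promoter, chr17:35262675-35263226, 221 bp from the start, the GFP libraries gave 140, 169 and 120 and the Actg1 libraries 252, 212 and 200. The lowest Actg1 library stood above the highest GFP library, and the fold was 1.61 (log2 fold change 0.69, SE 0.108). This is the region that holds the printed H2-D1 stretch. The other H2-D1 region, chr17:35257722-35258469, lies 4634 bp from the start and in no RefSeq gene. It went from 161, 149 and 134 to 271, 326 and 249, a 1.95-fold difference (log2 0.95, SE 0.0996). The groups were again apart, and both regions were called in all 12 alternative analyses.

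The H2-K1 promoter, chr17:34000034-34000517, 71 bp from the start, had far less signal. This level is uncertain, as reads could be split between similar copies. Its values were 22, 15 and 33 with the GFP guide and 40, 42 and 34 with the Actg1 guide, 1.50-fold (log2 0.62, SE 0.235). The groups were separated by a single unit of signal, 34 against 33. The call was lost in 5 of 12 alternatives, namely with cyclic loess scaling (log2 0.55), without GFP guide replicate 2 (0.50) and without Actg1 guide replicate 1 (0.59), 2 (0.56) or 3 (0.71). Without GFP guide replicate 3 the log2 fold change was 1.02.

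B2m had one of the more open promoters of the set, at chr2:122147342-122148113, 42 bp from the start, a region that also overlaps Patl2. Its signal was 353, 379 and 365 with the GFP guide and 337, 402 and 334 with the Actg1 guide. The groups overlapped, with a fold of 0.979 (log2 −0.04, SE 0.0767) and no call. Of the 3 promoters with the interferon response type and the spaced X2-type and Y-type letters, H2-D1 and H2-K1 were called higher and B2m was not; the difference between them was not tested.

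Of the transporter genes, Tap1 was not called and Tap2 had 1 region called of 2. The Tap1 region, chr17:34187130-34188116, covers the RefSeq starts of both Tap1 and Psmb9, which face away from each other, and it carries the name of Tap1 alone. It gave 264, 298 and 301 with the GFP guide and 260, 272 and 288 with the Actg1 guide (0.939-fold, log2 −0.09, SE 0.0812). The groups overlapped, and the region was called in none of the 12 alternatives; its value stands for the shared promoter and cannot be split between the genes.

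The Tap2 region nearest the table's start site, 75 bp away at chr17:34203341-34203563, was among the weakest of the set. It went from 14, 15 and 10 to 28, 20 and 23 (1.93-fold, log2 0.90, SE 0.302), with no overlap. It lies outside the RefSeq gene, and its call was lost without Actg1 guide replicate 1 (log2 0.78) and without GFP guide replicate 3 (0.66). The RefSeq start of Tap2 falls in the other region, chr17:34204390-34204788, 1062 bp from the table's start. That region had 73, 67 and 68 against 83, 76 and 60 (1.06-fold, log2 0.07, SE 0.157), with overlapping groups and no call. The value for Tap2 therefore depends on which start site is taken.

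The remaining class I genes had no region of their own name. Psmb9 shares the Tap1 region just described. For Psmb8, the centre of the nearest region lay 5257 bp from the RefSeq start. The RefSeq start of Tapbp lies in a region that the table assigns to Zbtb22, chr17:33919344-33919841. That region is not a member, and it was higher in the Actg1 libraries, with 381, 370 and 417 against 307, 314 and 316 (1.24-fold, log2 0.31, SE 0.0733, limma adjusted p = 0.000629). A second Zbtb22-named region in the Tapbp body, chr17:33920262-33920990, had 303, 296 and 279 with the GFP guide and 368, 381 and 335 with the Actg1 guide (log2 0.32, limma adjusted p = 0.000782), a call lost without GFP guide replicate 3 (log2 0.35). A region at the end of Tapbp that is named for Rgl2, chr17:33929148-33931084, went from 433, 433 and 421 to 522, 498 and 521 (log2 0.27, limma adjusted p = 0.000671). So all 3 regions that touch Tapbp rose, with log2 fold changes of 0.27 to 0.32. Over all regions 20.6% were called higher. Within 10 kb of Tapbp, regions of Daxx (log2 0.06) and of Zbtb22 at 188 bp (log2 −0.02) were not called. Tapbp was picked with the contrast known, so these values too are only a description. As Tapbp ends at 33929290, most of the Rgl2-named region lies beyond it.

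On the class II side, both H2-DMa regions were called higher, but they sit in the body of Brd2, which encodes a bromodomain protein that binds acetylated histones. The region 27 bp from the table's H2-DMa start, chr17:34119095-34119933, also holds a RefSeq start of Brd2 and was the most open of the set. It gave 676, 680 and 689 with the GFP guide and 807, 741 and 780 with the Actg1 guide. The groups were apart by a small margin, 1.14-fold (log2 0.18, SE 0.0529), and the call was lost without GFP guide replicate 3 (log2 0.19). The region at 849 bp, chr17:34120297-34120483, went from 101, 69 and 90 to 144, 137 and 117 (1.52-fold, log2 0.59, SE 0.125) and was called in all 12 alternatives. Signal here cannot be told apart between H2-DMa and Brd2.

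Beyond the member regions of this locus, the Brd2 promoter region, chr17:34120939-34122896, rose from 1476, 1501 and 1469 to 1943, 1844 and 1799 (1.26-fold, log2 0.33, SE 0.0374, limma adjusted p = 1.64e-09). Of the start sites that RefSeq promoter windows give for H2-DMa, one is covered by this Brd2-named region and the other by no region. A region without a gene symbol inside the H2-DMa body, chr17:34134502-34134686, rose 2.30-fold, from 31, 41 and 32 to 80, 82 and 73 (log2 1.18, limma adjusted p = 2.79e-07). A further one nearby, chr17:34135305-34135807, was not called, with 337, 345 and 339 against 360, 342 and 326. These were chosen for their place after their values were seen.

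Cd74 had the largest fold of the set, at low signal. Its region 151 bp from the start, chr18:60803571-60803822, had 19, 13 and 14 with the GFP guide and 39, 38 and 46 with the Actg1 guide. No GFP library exceeded 19 and no Actg1 library was below 38, and the fold was 2.73 (log2 1.39, SE 0.240), called in all 12 alternatives. The other region, 772 bp from the start at chr18:60803015-60803137, had 13, 17 and 15 against 18, 12 and 20 (1.11-fold, log2 0.11, SE 0.324), with overlapping groups and no call. Among all tested regions, both stood at the percentile 10.7 of GFP-guide signal.

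**Figure D2:**
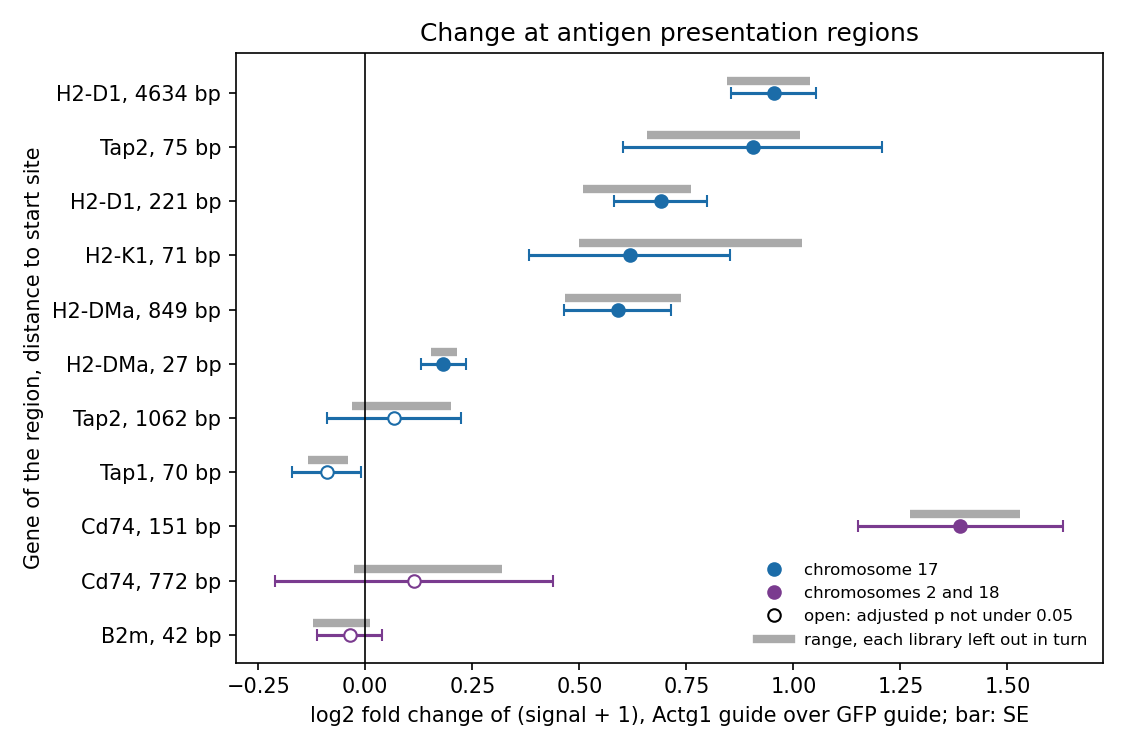
Log2 fold change of signal + 1, Actg1 guide over GFP guide (x), for each antigen presentation region (y), with bars of 1 SE from limma, filled points for adjusted p under 0.05, and grey bars for the range when each library was left out in turn. Values run from −0.09 at Tap1 to 1.39 at Cd74, and the grey bars of B2m, Tap2 at 1062 bp and Cd74 at 772 bp cross 0.

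Levels within the control cells ran over a wide range. They form the control side of the contrast known when the genes were picked, so they too are given only as a description. Among all tested promoter regions (centre within 1 kb of the start), GFP-guide signal stood at the percentile 92.5 for H2-DMa at 27 bp, 69.0 for B2m, 57.9 for Tap1 and 30.7 for H2-D1. It stood at 7.0 for H2-K1, 2.5 for Cd74 and 1.5 for Tap2 at 75 bp. Per kb of region, so that lengths are comparable, GFP-guide signal was 815 at H2-DMa at 27 bp, 473 at B2m, 295 at Tap1, 249 at H2-D1, 468 at H2-DMa at 849 bp, 122 at Cd74 at 772 bp, 59.5 at Cd74 at 151 bp, 54.9 at Tap2 at 75 bp and 53.2 at H2-K1. The last 3 had nearly the same density and cannot be ordered. Called and uncalled regions occurred at both ends of this range: H2-DMa at 27 bp, the densest, was called higher and B2m was not, and Cd74 at 151 bp was called higher while Cd74 at 772 bp, with the same GFP mean, was not. Regions differed in length from 123 bp (Cd74) to 987 bp (Tap1), against a median of 355 bp for all regions.

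On chromosome 17, where 45.6% of regions were called, 6 of 8 member regions were higher and the median log2 fold change was 0.60. Elsewhere, where 41.1% of regions were called, 1 of the 3 regions of B2m and Cd74 was higher, with a median of 0.11. These gene groups are small, their difference was not tested, and Cd74 had a larger fold than any member region of chromosome 17. The chromosome as a whole leaned the same way: 26.2% of its 2849 tested regions were called higher and 19.4% lower, against 20.3% and 20.7% of regions of the other chromosomes. Of promoters on chromosome 17, 39.0% were called, 25.7% higher and 13.2% lower, against 32.3% elsewhere, 13.4% higher and 18.9% lower. The median log2 fold change was 0.05 over all regions of chromosome 17 and −0.01 over all regions tested. As the contrast chose the member genes, nothing is read from their median beside these.

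Regions beside the members were compared next. They were picked by closeness to regions of genes chosen with the contrast known, so their counts and calls are only a description. Of 7 regions with a centre within 10 kb of a member region and another name or none, limma called 4 higher and 0 lower, and at an unadjusted p under 0.05 5 were higher and 0 lower. Over all regions 41.3% were called and 20.6% were higher, and on chromosome 17 26.2% were higher. One is the Brd2 promoter given above. The largest difference was at a region without symbol inside Tap2, chr17:34210385-34210938, which rose from 43, 53 and 49 to 122, 118 and 117 (2.45-fold, log2 1.28, SE 0.139, limma adjusted p = 6.57e-10). Its log2 fold change was above those of the Tap2 regions nearer the start, 0.90 and 0.07. Downstream of H2-D1, chr17:35269763-35270197, which is assigned to no gene, rose from 16, 25 and 19 to 45, 49 and 42 (log2 1.16, SE 0.219, limma adjusted p = 3.68e-05). Beside H2-K1, chr17:33991814-33992108 went from 14, 23 and 26 to 40, 34 and 33 (1.60-fold, log2 0.67, limma adjusted p = 0.0198), and its call was lost when replicate 1 of either group was left out.

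The 1263.2 kb of chromosome 17 between the H2-K1 and H2-D1 regions held 93 other tested regions, of which 28 were called higher and 10 lower, with a median log2 fold change of 0.16. At its 35 promoter regions 15 were higher and 2 lower, and at the other 58 regions 13 were higher and 8 lower. So 30.1% of the span was higher and 10.8% lower, beside 26.2% and 19.4% of all regions on the chromosome. At its promoters 42.9% were higher and 5.71% lower, beside 25.7% and 13.2% of all promoters on the chromosome. These differences were not tested. Without GFP guide replicate 3 the span had 10 higher and 4 lower.

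**Figure D3:**
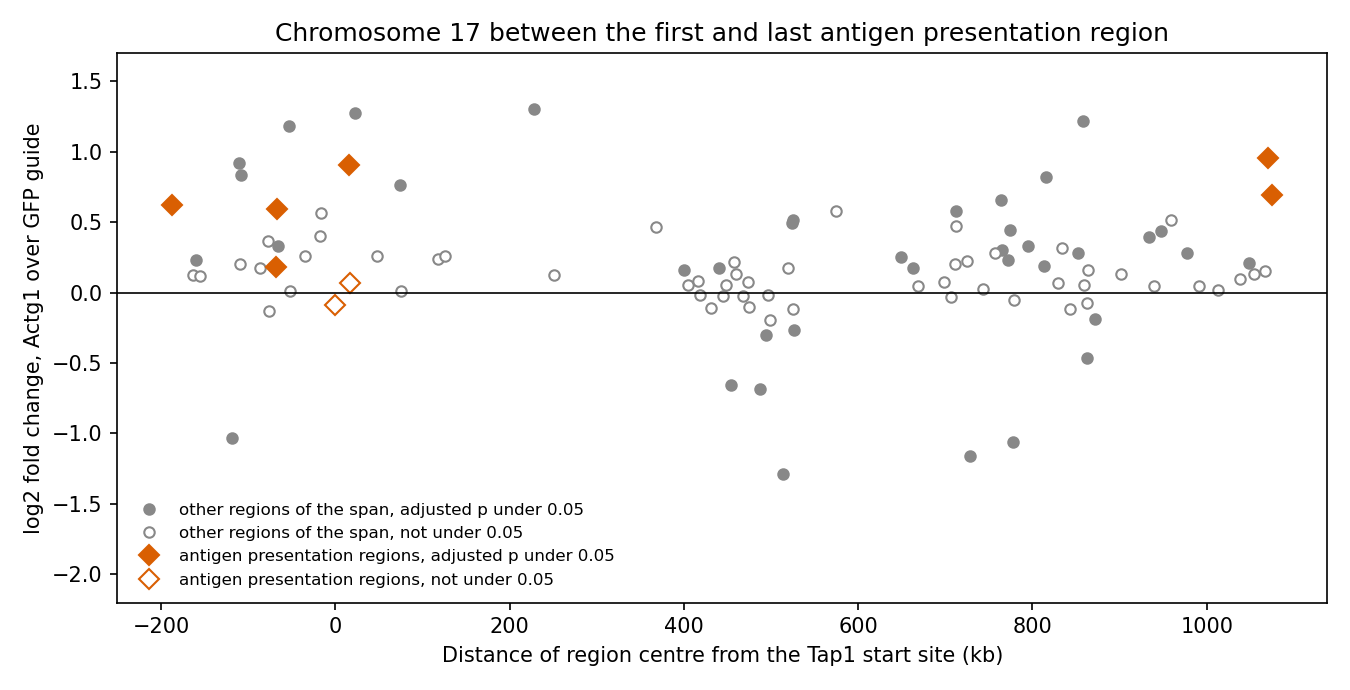
Log2 fold change, Actg1 over GFP guide (y), against the distance of the region centre from the Tap1 start site in kb (x), for the member regions of chromosome 17 (diamonds) and the 93 other tested regions between the outermost ones (circles), filled where adjusted p was under 0.05. Filled circles lie on both sides of 0, with 28 above and 10 below.

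The rest of the pathway was taken from 5 gene lists and read at promoters, where 32.7% of all 11650 regions were called, 14.0% higher and 18.7% lower. These lists were drawn up with earlier results of these data known. Of other class I heavy chain and class I-like genes, 0 of 9 tested promoters rose and 2 fell by limma, the same counts as at an unadjusted p under 0.05, with a median log2 fold change of −0.18. Only 11 of the 22 genes listed had a region. None of the H2-Q genes listed had one, H2-Q7 included, whose upstream window was 88.2% identical to that of H2-K1. The list therefore says nothing about them. The promoter of H2-M2, below the filter, had 2, 1 and 4 with the GFP guide and 17, 9 and 6 with the Actg1 guide. Without the filter on low signal, 1 promoter of the list was called higher and 2 lower. Fcgrt, the neonatal Fc receptor, which carries IgG rather than peptide, fell from 155, 176 and 169 to 82, 72 and 79 (log2 −1.10, limma adjusted p = 2.13e-09). H2-T24 fell from 149, 119 and 134 to 105, 101 and 101 (log2 −0.39, limma adjusted p = 0.00837), a call lost without GFP guide replicate 1 or 3. Ulbp1, a ligand of the NKG2D receptor and the most open promoter of this list, was not called (log2 −0.03, limma adjusted p = 0.796). At any distance 4 regions of the list were higher and 2 lower, so 35.3% were called, beside 41.3% of all regions. Distal regions of the genes whose promoters fell were among the higher ones, H2-T24 at 4511 bp (log2 0.86) and Fcgrt at 4864 bp (log2 1.41), as was H2-T23 at 2506 bp (log2 0.63), named here after their values were seen.

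Among the other genes of class I peptide loading and trimming, 2 of 15 promoters rose and 1 fell. Npepps, a cytosolic aminopeptidase, rose from 215, 185 and 199 to 253, 268 and 273 (log2 0.41, limma adjusted p = 0.000187), and Thop1, a peptidase that destroys cytosolic peptides, rose by 0.25 on that scale (limma adjusted p = 0.0106). Ero1a, an oxidase of the endoplasmic reticulum, fell by 0.19 (limma adjusted p = 0.0339). Lnpep, which trims peptides for cross-presentation, had the highest signal of this list and was not called (limma adjusted p = 0.730), with 1464, 1457 and 1490 against 1434, 1533 and 1520. The list's median log2 fold change was 0.02, against −0.02 for all promoters. The Thop1 call was lost without Actg1 guide replicate 2 or GFP guide replicate 2 or 3, and the Ero1a call in 5 of 12 alternatives, both scalings included.

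Of the other proteasome genes, 5 of 37 promoters rose and 2 fell, with a median of 0.05. Psme3, of the nuclear PA28-gamma activator cap, rose from 140, 165 and 139 to 214, 189 and 193 (log2 0.44, limma adjusted p = 0.00041). Psme1, of the interferon-inducible PA28-alpha/beta cap, fell from 220, 209 and 241 to 164, 147 and 142 (log2 −0.59, limma adjusted p = 7.56e-06), and its partner Psme2, the most open promoter of the list, was not called (log2 −0.07, limma adjusted p = 0.248). Psmb3, a core subunit, and Psmd2, of the regulatory particle, rose by 0.34 and 0.31 (limma adjusted p = 0.000257 and 0.000602). Psmd10, an assembly factor, fell by 0.19 (limma adjusted p = 0.0455), a call lost in 6 of 12 alternatives. Without GFP guide replicate 3 only 1 promoter of the list was called, and Psme3, Psmb3 and Psmd2 were not.

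Class II pathway genes gave 1 rise and 2 falls among 10 promoters, with a median of −0.03. Among lysosomal proteases, Ctsz fell from 219, 226 and 219 to 165, 176 and 171 (log2 −0.37, limma adjusted p = 0.00162) and Ctsl by 0.29 (limma adjusted p = 0.000931). Lgmn, the asparaginyl endopeptidase with the highest signal here, was not called (log2 −0.14, limma adjusted p = 0.106). Cd9, a tetraspanin, rose by 0.23 (limma adjusted p = 0.0408), a call lost in 4 of 12 alternatives. A Cd9 region at 3390 bp, named after its values were seen, fell (log2 −0.38, limma adjusted p = 0.000289), and one at 1519 bp was not called. At any distance 2 regions of the list were higher and 3 lower of 15, so 33.3% were called, beside 41.3% of all regions. The Ctsl call was lost without GFP guide replicate 3. At the promoters of the class II chain H2-Eb1 and of H2-DMb1, the partner of H2-DMa, neither was called: H2-Eb1 had 19, 16 and 16 against 24, 27 and 12, and H2-DMb1 42, 47 and 31 against 42, 41 and 52.

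Among regulators of these genes, 6 promoters of 31 were called higher and 5 lower, with a median of −0.01. That is 35.5% called, 19.4% higher and 16.1% lower, beside 32.7%, 14.0% and 18.7% of all promoters. Irf3, a factor of the antiviral response, rose from 147, 187 and 149 to 220, 204 and 193 (log2 0.38, limma adjusted p = 0.00186). Nfkb2, of the non-canonical NF-kB pathway, rose from 847, 949 and 874 to 1137, 1111 and 1128 (log2 0.34, limma adjusted p = 4.04e-08). Jak1, a kinase of interferon receptors, and Creb1, which binds X2-type boxes, fell by 0.23 and 0.22 (limma adjusted p = 0.00894 and 0.00827). Nlrc5, the class I transactivator, had 130, 101 and 86 against 114, 145 and 115 and was not called at its promoter (log2 0.31, limma adjusted p = 0.0554), but a region 2816 bp from its start rose from 26, 18 and 23 to 47, 50 and 48 (log2 1.07, limma adjusted p = 5.6e-05). Irf1 (0.11, limma adjusted p = 0.286) and Rfx5 (−0.12, limma adjusted p = 0.161) were not called either, and Ciita, the class II transactivator, was assigned no region. Socs1, a feedback inhibitor of interferon signalling and the most open promoter of the list, rose by 0.09 (limma adjusted p = 0.0301), a call lost in 3 of 12 alternatives. Away from that promoter, a Socs1 region at 1558 bp fell from 153, 165 and 182 to 51, 54 and 55 (log2 −1.66, limma adjusted p = 9.55e-13), and one at 3376 bp rose by 0.38 (limma adjusted p = 0.00107). At any distance 9 regulator regions were higher and 6 lower of 38, so 39.5% were called, beside 41.3% of all regions. The distal regions given here were named after their values were seen. Calls were also lost without GFP guide replicate 3 for Irf3 and Jak1, without Actg1 guide replicate 2 for Creb1 and without 3 for Jak1. Without GFP guide replicate 3, which left 3 of the 11 calls, the single remaining GFP sample is assumed to vary like the Actg1 group.

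**Figure D4:**
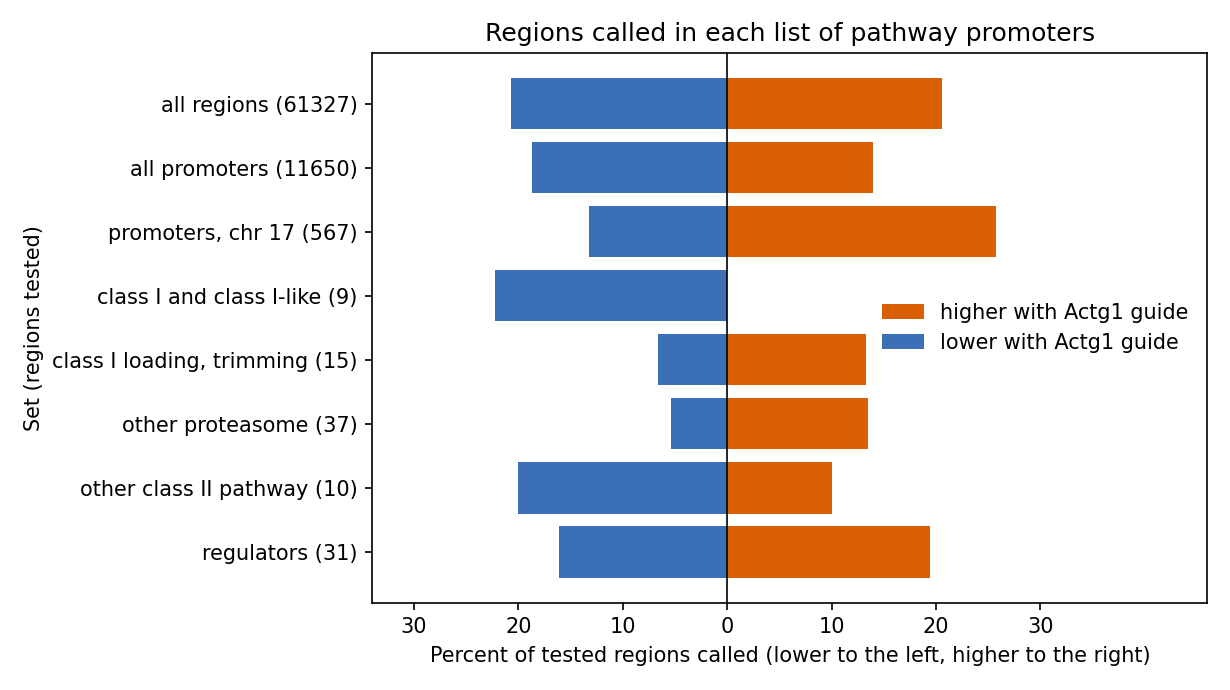
Percent of tested regions called lower (left) or higher (right) with the Actg1 guide (x) for all regions, all promoters, promoters of chromosome 17 and the promoters of each pathway list (y, number tested in parentheses). Promoters of all genes were 18.7% lower and 14.0% higher, and no list lies wholly on the higher side.

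Markers were checked for the labelled cell type and for cells that present antigen professionally. All 8 fibroblast marker genes had regions, and their summed signal was 3740 to 3914 in the GFP libraries and 3675 to 3779 in the Actg1 libraries. Of their 19 regions 4 were called higher and 5 lower, 21.1% and 26.3%, beside 20.6% and 20.7% of all regions. Among promoter regions, Col1a1 at 823 bp rose (log2 0.70, limma adjusted p = 1.49e-09), while Col1a1 at 20 bp was not called (log2 0.09, limma adjusted p = 0.605). The promoter regions of Col1a2 at 819 bp (log2 −0.77, limma adjusted p = 1.84e-08) and Pdgfrb at 59 bp (log2 −0.36, limma adjusted p = 0.000137) fell. Of 14 leukocyte and antigen-presenting cell markers, 5 had a region, and 9 had none, among them Cd79a, Ms4a1, Cd3e, Itgam, Itgax, Adgre1, Spi1 and Flt3. The summed signal of those 5 regions was 339 to 352 with the GFP guide and 405 to 445 with the Actg1 guide. It was thus higher in the same group as Cd74 at 151 bp. Within a group the order differed: GFP sums of 339, 340 and 352 stood beside 19, 13 and 14 at Cd74. Actg1 sums of 445, 411 and 405 stood beside 39, 38 and 46. The change in the sum was at 2 of the 5 regions. The Cd68 promoter rose from 56, 56 and 42 to 112, 100 and 91 (log2 1.04, limma adjusted p = 5.44e-07), and a region 4938 bp from the Csf1r start rose from 12, 14 and 18 to 44, 50 and 50 (log2 1.58, limma adjusted p = 3.9e-07). This Csf1r region, chr18:61105433-61105639, lies on the same chromosome as Cd74. Ptprc, the pan-leukocyte marker, had 129, 144 and 141 against 140, 139 and 132 at 4513 bp from its start. Zbtb46 had 140, 121 and 144 against 146, 118 and 127, and Lyz2, below the filter, 2, 5 and 7 against 3, 4 and 5. The part of these markers in the result at Cd74 was not tested.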

How the data were processed

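The authors deposited 1 table of ATAC-seq signal, a read count per region normalized between libraries and rounded to whole numbers; this reading comes from the values. The deposited table also gives the fraction of each region inside its gene, used for no result, and the distance to the start site. The submitters' processing notes list build mm10 and, without saying what each did, Trimmomatic 0.39, STAR 2.7.10a, Picard 3.0.0, featureCounts, DESeq and DESeq2 1.36.0. How peaks were called and merged, whether reads were shifted for Tn5, and how signal was scaled: not given in the sources used here.

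Estimated reads in regions were 5676435 to 9527648 per library. Replicates 1 and 2 of the GFP guide lay within sampling noise (chi-square per region 0.987, p = 0.984, 49726 regions, against 1.04 to 1.12 for other pairs of a group) and were averaged as 1 sample, a step taken over from an earlier pass. log2(signal + 1) was modelled with limma 3.58.1 (R 4.3.3), using a trended prior variance and no covariates, over regions with signal of at least 10 in at least 3 libraries, which left out 2103. The design named a count model for raw counts; these values are normalized, so limma was used. A trial of the fit on simulated data changed only a small share of regions, unlike these data, so nothing is concluded from it. Motifs and gene bounds use RefSeq tables (GRCm38.p6).

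The members and lists were chosen with earlier results of these data known. Genes named from each list were the 3 largest rises and 3 largest falls among called promoters, the most open promoter and the regulators Nlrc5, Ciita, Rfx5 and Irf1; of regions near members, the 4 largest changes called. Some genes that this rule names are not reported here. Alternatives were another pseudocount, no filter, 2 scalings, separate libraries, a replicate block and leaving out each library.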

Additional observations from a re-analysis of the deposited data

How the results depend on the processing

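Calls over all regions numbered 12642 higher and 12681 lower, and the 12 alternatives were a pseudocount of 5, no filter, cyclic loess or quantile scaling, 6 separate libraries, the replicate block, and leaving out each library. Member regions called stayed between 5 and 7 of 11, all higher. Leaving out 1 library gave 12793 to 24706 calls over all regions, 14 to 41 in the chromosome 17 span, 1 to 2 in the class I list, 1 to 3 in the loading and trimming list, 1 to 8 in the proteasome list, 1 to 3 in the class II list and 3 to 11 among regulators. The lowest of each came without GFP guide replicate 3, which leaves a single GFP sample, assumed to vary like the Actg1 group; the class I list also gave 1 without GFP guide replicate 1, and the loading list 1 without Actg1 guide replicate 2. Regulators gave 7 and 6 without Actg1 guide replicates 1 and 3. Regions at any distance in place of promoters gave 6, 11 and 5 calls in the class I, proteasome and class II lists, a wider set by construction.

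Log2 fold changes of uncalled regions changed sign when a library was left out: B2m (−0.12 to 0.01, positive at 0.0037 without Actg1 guide replicate 1 and 0.0101 without 3), Tap2 at 1062 bp (−0.0304 to 0.20), Cd74 at 772 bp (−0.0258 to 0.32), Ulbp1 (−0.12 to 0.0458, positive at 0.0091 without GFP guide replicate 1), Ptprc (−0.0568 to 0.0220, positive at 0.0079 without Actg1 guide replicate 3 and 0.0048 without GFP guide replicate 3) and the uncalled region in the H2-DMa body (−0.0260 to 0.0453). The cause was not tested. For single regions, 733 comparisons with an alternative kept direction and side of the threshold, 55 lost and 6 gained a call, and 10 changed sign.

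The replicate numbers are not shown to pair the samples: deviations of same-numbered libraries correlated at 0.0252, 0.0138 and 0.0161, although each library correlated best with its own number, a hint from the data. With the replicate block and 6 separate libraries 14322 regions were higher and 14403 lower, against 14071 and 14105 for 6 separate libraries without it, and 7 member regions were called in both. Low signal limits the precision at H2-K1, Tap2 at 75 bp and Cd74, whose SEs were above 0.2.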

Other observations

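Single regions of other genes between H2-K1 and H2-D1 on chromosome 17 changed more, in either direction, than most antigen presentation regions. Those below were named after their values were seen. Apart from the region near H2-Ab1, they are extremes of the 93 other tested regions. Larger rises than that near H2-Ab1 are not all listed, such as Vars1 at 1668 bp (log2 0.82). The median log2 fold change of these 93 was 0.16, and 55 of them were not called. A region 1340 bp from the start of Msh5, a meiotic recombination gene, rose from 47, 69 and 63 to 129, 135 and 164 (log2 fold change 1.22, limma adjusted p = 6.35e-10). A region in BC051142 went from 5, 2 and 7 to 11, 14 and 17 (1.30, limma adjusted p = 0.0123), a call lost without Actg1 guide replicate 3. Near H2-Ab1, the class II beta chain gene, a region 4016 bp from the start went from 11, 13 and 14 to 15, 30 and 26 (0.77, limma adjusted p = 0.0435), a call lost in 5 of 12 alternatives. In the other direction, a region in Tnxb, the gene of tenascin-X of the extracellular matrix, fell from 95, 102 and 92 to 42, 26 and 52 (−1.28, limma adjusted p = 8.53e-07). A region 1047 bp from the start of Slc44a4, a choline transporter family gene, fell from 31, 29 and 39 to 22, 12 and 12 (−1.16, limma adjusted p = 0.00125), a call lost without GFP guide replicate 3. A region assigned to Gm20481 fell from 63, 71 and 68 to 39, 26 and 32 (−1.06, limma adjusted p = 2.99e-05).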
